A study of Mus musculus with 2 samples.

Results

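Interferon response genes are the receptors, transcription factors and antiviral effectors through which cells sense and answer interferons. A set of 39 such genes was chosen by name, with earlier results of these data known. It was examined in cultured urogenital sinus mesenchyme (UGM) cells of the mouse, stroma of the fetal tract from which the prostate arises. Of these 39 genes, 37 had a probe set that named them alone, among 18193 genes so named on the array. Isg15 and Ifi44 had none, so their expression is not analysed here. A gene counts as measured here if either array reached 5 on the log2 intensity scale (an intensity of 32, the floor). By that rule 28 members were measured, among 10267 genes in all.

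The series holds 1 array of cells given testosterone (12 nM) and estradiol-17β (120 pM), written T+E2, and 1 array of untreated cells. Both were male C57BL/6 cells of day 16, grown in serum and then kept for 72 h in RPMI medium that held Plasmocin (5 µg/ml), an antibiotic, and 5% serum stripped of steroids with charcoal. The sample titles give 24 h where the protocol and the characteristics give 72 h, and the descriptions call the untreated culture confluent and the T+E2 culture nearly so, whereas the growth protocol gives 80% confluency for both. The series asked which genes the hormone pair induces in this mesenchyme. With 1 array per condition no difference can be set against the spread between cultures and no p-value is given. In bulk RNA, more or fewer cells of a type cannot be told apart from more or less RNA per cell. Differences below are on the log2 scale, T+E2 minus untreated, and a gene was counted as different at 2-fold or more, a log2 difference of at least 1 in size.

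Type I interferons bind a receptor made of IFNAR1 and IFNAR2 and type II interferon binds IFNGR1 and IFNGR2. Receptor-bound kinases then phosphorylate STAT proteins. A complex that holds STAT2 and IRF9 binds the interferon-stimulated response element (ISRE). A second element, the gamma-activated site (GAS), serves type II signalling. Both switch on effector genes that degrade viral RNA, block its translation or attack intracellular pathogens. Fibroblasts and other stromal cells keep a low level of this programme without infection.

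Among the 28 measured members, T+E2 was 2-fold or more above untreated in 3 and 2-fold or more below it in 1, and the remaining 24 stayed within 2-fold. The shares of all measured genes past 2-fold were 4.96% on the higher side and 4.01% on the lower side. The members past 2-fold were the 2′-5′ oligoadenylate synthetase-like gene Oasl2, the guanylate-binding protein gene Gbp7 and the receptor gene Ifnar1 on the higher side and the immunity-related GTPase gene Ifi47 on the lower side. The median difference of the measured members was 0.45, with an interquartile range of -0.05 to 0.74, against 0.07 (-0.32 to 0.45) for all measured genes. Of the 28 measured members, 19 (67.9%) lay above 0, against 55.8% of all measured genes. Oasl2 and Gbp3 reached the floor on the T+E2 array alone, so their inclusion fixed their direction. With every difference centred on the median of all measured genes, 2 members were higher and 1 was lower, since Ifnar1 came to 0.96. Of all measured genes 509 were higher and 412 lower as reported. The split was 408 and 520 with this centring, 389 and 518 with the trend of the difference with level removed, and 301 and 437 with the trend with genomic span removed.

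**Figure D1:**
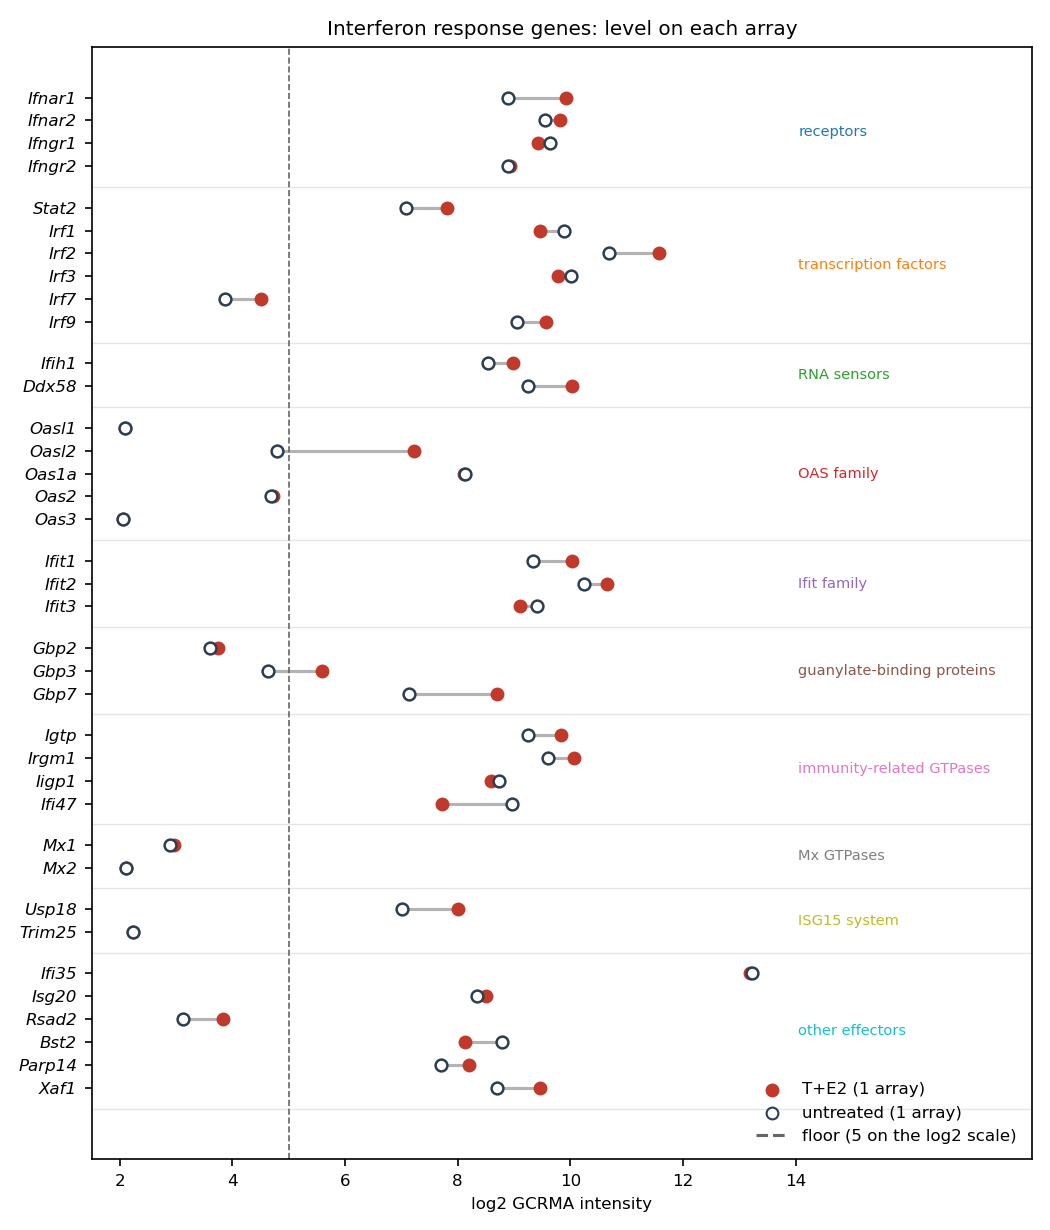
Log2 GCRMA intensity of the 37 interferon response genes with a probe set of their own, on the T+E2 array (filled red) and the untreated array (open), by family. The dashed line is the floor of 5, which 9 genes missed on both arrays, and the longest gap is that of Oasl2, at 7.23 with T+E2 and 4.79 untreated.

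The proximal promoters of 33 members, Isg15 and Ifi44 among them, were in the RefSeq table of build GRCm38.p6, and the 250 bases before each start site were searched, a gene counting if any of its listed start sites held a match. The ISRE core was taken as GAAA, any 2 bases and GAAA again (TTTC, any 2 bases and TTTC on the other strand). The GAS core was taken as TTC, any 3 bases and GAA, which reads the same on both strands. The ISRE core was found in 14 of the 33 members (42.4%), against 3.46% of the 27025 genes in the table. The GAS core was found in 9 of 33 (27.3%), against 8.13% of all genes. Overlapping matches were counted, and in Bst2 an ISRE match and a GAS match shared bases. The palindromic estrogen response element (GGTCA, any 3 bases, TGACC) was in 0 of 33 members and in 18 (0.067%) of all genes. The palindromic androgen response element (AGAACA, any 3 bases, TGTTCT) was in 0 of 33 members and in 3 (0.011%) of all genes. A match is a string of letters and not a measured binding site.

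The ISRE matches of Gbp7, Gbp3, Ifit1, Ifit3, Igtp, Irgm1, Oas1a and Bst2 are shown in 60-base windows, because these members stood at different distances from 0 while holding the same core. They were picked for display after their values were seen. Each runs from 5′ to 3′ on the gene's own strand, and capitals mark the ISRE matches.
Gbp7: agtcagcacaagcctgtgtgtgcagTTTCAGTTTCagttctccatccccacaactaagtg
Gbp3: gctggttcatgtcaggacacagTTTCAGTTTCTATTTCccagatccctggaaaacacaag
Ifit1: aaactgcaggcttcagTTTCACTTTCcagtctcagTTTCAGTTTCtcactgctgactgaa
Ifit3: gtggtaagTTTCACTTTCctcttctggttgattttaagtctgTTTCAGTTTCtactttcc
Igtp: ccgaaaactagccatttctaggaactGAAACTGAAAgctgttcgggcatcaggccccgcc
Irgm1: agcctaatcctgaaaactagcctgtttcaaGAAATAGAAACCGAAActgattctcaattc
Oas1a: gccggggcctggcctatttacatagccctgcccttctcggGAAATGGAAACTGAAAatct
Bst2: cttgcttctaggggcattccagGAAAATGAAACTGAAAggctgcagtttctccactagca
In build GRCm38.p6 these windows lie in the sequence before the start sites. The guanylate-binding protein windows are Gbp7 at chr3:142530258-142530317 (plus strand) and Gbp3 at chr3:142559977-142560036 (plus strand). The Ifit windows are Ifit1 at chr19:34640769-34640828 (plus strand) and Ifit3 at chr19:34583365-34583424 (plus strand). The immunity-related GTPase windows are Igtp at chr11:58199496-58199555 (plus strand) and Irgm1 at chr11:48871421-48871480 (minus strand). The other windows are Oas1a at chr5:120907526-120907585 (minus strand) and Bst2 at chr8:71537565-71537624 (minus strand).

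Members with and without these letters both spanned 0. Of the 10 measured members with an ISRE match, 7 lay above 0, with a median of 0.59 and a range of -0.66 (Bst2) to 1.57 (Gbp7). Of the 15 measured members in the promoter table without one, 10 lay above 0, with a median of 0.28 and a range of -1.23 (Ifi47) to 2.23 (Oasl2). Oasl2, Ifnar1 and Ifi47 had no ISRE match in the window. The 9 measured members with a GAS match had a median of 0.28 and the 16 without one a median of 0.49.

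The receptor genes were all measured, and 1 of 4 reached 2-fold. Ifnar1, the chain that recruits the kinase TYK2, had an intensity of 974 with T+E2, against 476 in untreated cells (2.04-fold, log2 difference 1.03). This value lies just past the threshold. A second Ifnar1 probe set stayed at background, 4.65 with T+E2 and 4.87 untreated, and with the mean of both probe sets the difference was 0.48. Ifnar2, the chain that completes the type I receptor, stood at 907 with T+E2, against 749 untreated (0.28), and all 3 of its probe sets were above 0. The interferon-gamma receptor genes differed less, Ifngr1 at 686 with T+E2 against 802 untreated (-0.22) and Ifngr2 at 487 with T+E2 against 477 untreated (0.03). The receptor median was 0.15. Ifnar2, Il10rb, Ifnar1 and Ifngr2 are consecutive coding genes on chromosome 16 in the RefSeq order, and their differences were 0.28, 0.24, 1.03 and 0.03, the Ifnar1 value being the highest of the 4.

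None of the transcription factor genes reached 2-fold, and Stat2 and Irf9 lay above 0. Stat2 was at 225 with T+E2, against 136 untreated (0.73), with a second probe set at background on both arrays. Irf9, its DNA-binding partner, was at 755 with T+E2, against 530 untreated (0.51). Irf2, which competes with IRF1 for ISRE sites and mostly represses, was at 3038 with T+E2, against 1652 untreated (0.88). Irf1, an activator induced by interferon gamma, lay on the other side, at 702 with T+E2 against 948 untreated (-0.43). Irf3, the factor activated by virus sensing, was at 884 with T+E2, against 1033 untreated (-0.22), and its other measured probe set stood at -0.38. Irf7, which amplifies type I interferon production, was under the floor on both arrays, at 22.8 with T+E2 and 14.7 untreated. The median of the 5 measured factors was 0.51. When all probe sets of a gene were averaged it was 0.24, and that average takes in probe sets at background.

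The cytosolic RNA sensor genes lay on the same side. Ddx58, which encodes RIG-I, was at 1047 with T+E2, against 606 untreated (0.79), and a second measured probe set gave 0.94. Ifih1, which encodes MDA5, was at 505 with T+E2, against 373 untreated (0.44). Neither reached 2-fold.

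In the OAS family, whose enzymes make the 2′-5′ oligoadenylates that activate RNase L, the members split. Oasl2 was at 150 with T+E2, against 27.6 in untreated cells, which is under the floor, so it was at least 4.70-fold higher (log2 difference at least 2.23). With this floor it was the member with the largest difference, whereas with a floor of 6 it stood at 1.23 or more, below Gbp7 at 1.57. Oas1a, a catalytic member, was at 278 with T+E2, against 282 untreated (-0.02). Oas2 (26.4 with T+E2 and 25.8 untreated), Oas3 (4.16 with T+E2 and 4.14 untreated) and Oasl1 (4.29 with T+E2 and 4.27 untreated) missed the floor on both arrays and have no difference. Oasl1 and Oasl2 are adjoining genes on chromosome 5 and Oasl2 reached the floor while Oasl1 did not. The size of the Oasl2 difference follows the floor, since it was 2.44 with none.

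The Ifit genes, whose products bind viral RNA and block its translation, were all measured, and none of 3 reached 2-fold. Ifit1 was at 1044 with T+E2, against 651 untreated (0.68), and Ifit2 at 1618 with T+E2 against 1206 untreated (0.42). Ifit3 lay on the other side, at 550 with T+E2 against 678 untreated (-0.30). Ifit2 and Ifit3 are adjoining genes on chromosome 19. The promoters of Ifit1 and Ifit3 each held 2 ISRE matches.

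The interferon-induced GTPases held members at both ends of the list. Of 9 GTPase genes 6 were measured, of which 1 was higher, 1 lower and 4 in between. Guanylate-binding proteins coat and break open pathogen vacuoles. Gbp7 was at 416 with T+E2, against 140 untreated (2.97-fold, log2 difference 1.57). Its second probe set was at background on both arrays, 4.57 with T+E2 and 4.51 untreated, and with the mean of both probe sets the difference was 0.45, under 2-fold. Gbp3 was at 48.4 with T+E2, against 24.9 untreated, under the floor, so the difference was at least 0.60. Gbp6 (0.06) and Gbp8 (0.02), guanylate-binding protein genes outside the 39, were near 0. Gbp2, which lies in a cluster with Gbp3 and Gbp7 on chromosome 3, was under the floor on both arrays, at 13.3 with T+E2 and 12.2 untreated. These genes are close paralogs, and cross-hybridization of their probes was not tested.

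The immunity-related GTPases, which act on the vacuoles of intracellular pathogens, lay on both sides of 0 with a median of 0.17. Igtp was at 912 with T+E2, against 607 untreated (0.59). Irgm1, a regulator of the other family members, was at 1077 with T+E2, against 779 untreated (0.47). Iigp1 was at 388 with T+E2, against 425 untreated (-0.13), and its second probe set gave 0.01. Ifi47 was at 212 with T+E2, against 497 untreated, 2.34-fold lower (-1.23), the lowest value among the members. It has 1 probe set, so no second reading exists here. The Mx genes, whose dynamin-like products block viral nucleocapsids, were under the floor on both arrays, Mx1 at 7.82 with T+E2 and 7.46 untreated and Mx2 at 4.33 with T+E2 and 4.32 untreated.

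**Figure D2:**
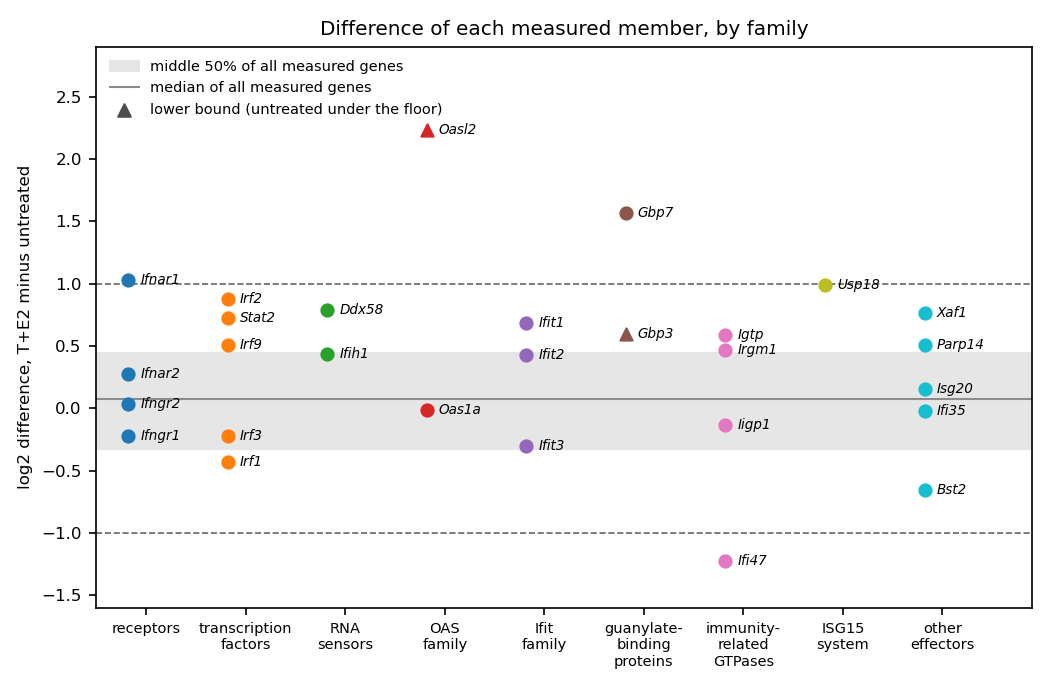
Log2 difference (T+E2 minus untreated) of the 28 measured members by family, each point 1 gene and triangles lower bounds because the untreated array was under the floor. The grey band is the interquartile range of all measured genes (-0.32 to 0.45), the grey line their median (0.07) and the dashed lines 2-fold. Oasl2, Gbp7 and Ifnar1 lie above the upper dashed line and Ifi47 below the lower one.

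ISG15 is a ubiquitin-like protein that interferon-treated cells attach to other proteins. Usp18, which removes ISG15 and also restrains signalling at IFNAR2, was at 257 with T+E2, against 129 untreated (1.98-fold, 0.99), just short of 2-fold. Trim25, the ligase that activates RIG-I, was under the floor in all 3 of its probe sets.

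Among the other effectors, 5 were measured and none reached 2-fold, with a median of 0.15. Xaf1, a pro-apoptotic partner of XIAP, was at 707 with T+E2, against 415 untreated (0.77), and its second probe set gave 0.68. Parp14, an ADP-ribosyltransferase, was at 296 with T+E2, against 208 untreated (0.51). Isg20, an exonuclease, was at 361 with T+E2, against 325 untreated (0.15). Bst2, the tetherin that holds budding virus at the cell surface, was at 280 with T+E2, against 442 untreated (-0.66). Ifi35 was at 9386 with T+E2, against 9552 untreated (-0.03), and its 3 probe sets lay on both sides of 0. Rsad2, which encodes viperin, was under the floor on both arrays, at 14.3 with T+E2 and 8.75 untreated.

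**Figure D3:**
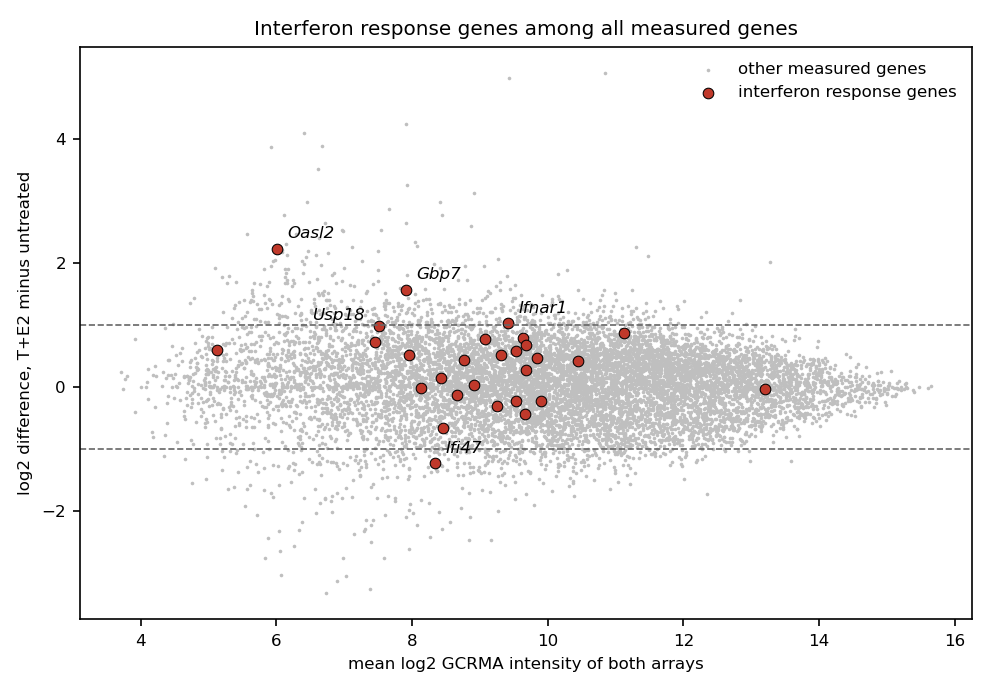
Log2 difference (T+E2 minus untreated) against the mean log2 GCRMA intensity of both arrays for all 10267 measured genes (grey) and the 28 measured interferon response genes (red), with dashed lines at 2-fold. Members lie inside the cloud of other genes, with Oasl2 (2.23) and Gbp7 (1.57) toward its upper edge at their level and Ifi47 (-1.23) toward its lower edge.

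A further 139 genes of the pathway in 7 lists were read the same way, of which 77 were measured. Of these, 2 were at least 2-fold higher, 2 at least 2-fold lower and 73 lay between. Their median was 0.13 and 47 of them (61.0%) were above 0, against 0.07 and 55.8% for all measured genes. Each share past 2-fold was 2.60%, against 4.96% higher and 4.01% lower among all measured genes. Of 10 ligand genes with a probe set, 9 were under the floor, among them Ifnb1 and Ifng. The exception was Ifnz, at 156 with T+E2 against 391 untreated (-1.32). Genes of signalling and its inhibitors were measured in 12 cases, with none at 2-fold, 10 above 0 and a median of 0.44. Irf2bp1 (0.93) and Irf2bp2 (0.81), partners of IRF2, had the largest values there. Nucleic acid sensing genes (14 measured) had 7 above 0 and 7 below, with a median of 0.04. One of those above, Rnf125, reached the floor on the T+E2 array alone, so its inclusion fixed its direction. The adaptor genes Ticam1 (0.90) and Mavs (0.89) had the largest values among them.

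Among 33 further induced effectors, 1 was higher and 1 lower, with a median of 0.14. Mov10, an RNA helicase gene, was at 101 with T+E2, against 45.6 untreated (1.15). It came under 2-fold with a floor of 6 (0.66) and with the level trend removed (0.9987). Ifitm1, which encodes a membrane protein that blocks virus entry, was at 301 with T+E2, against 701 untreated (-1.22), and came under 2-fold with the genomic span trend removed (-0.98). Its neighbours Ifitm2 (-0.09) and Ifitm3 (0.11) were near 0. The 3 further GTPase genes had a median of 0.06, with Gbp6 and Gbp8 near 0 as above. Irgm2 was at 507 with T+E2, against 170 untreated (1.58), and it adjoins Igtp on chromosome 11. Antigen presentation genes (11 measured) had none at 2-fold and a median of 0.07. Farthest from 0 were Erap1, a peptide-trimming enzyme, at 0.93 and the proteasome activator gene Psme1 at -0.53. Nlrc5, also of this list, reached the floor on the T+E2 array alone, so its inclusion fixed its direction. Of the chemokine genes 3 were measured, with Ccl7 at -0.85 and Ccl2 at -0.69. The third, Ccl5, reached the floor on the untreated array alone, so its inclusion fixed its direction. Cxcl9, Cxcl10 and Cxcl11, chemokine genes that interferon gamma induces, were under the floor on both arrays.

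**Figure D4:**
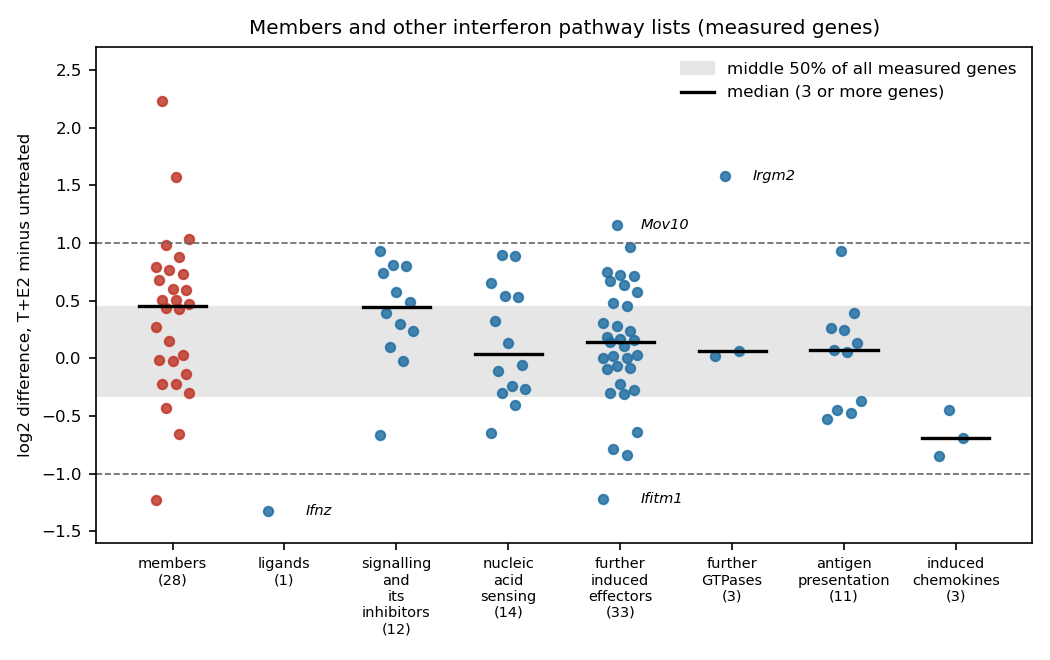
Log2 difference (T+E2 minus untreated) of the 28 measured members (red) and of the measured genes of 7 other interferon pathway lists (blue, number of genes in brackets), with black bars at the medians, the grey band for the interquartile range of all measured genes and dashed lines at 2-fold. Medians are 0.45 for the members, 0.44 for signalling and its inhibitors, 0.14 for the further induced effectors and 0.06 for the further GTPases.

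Of 10 mesenchyme markers 9 were measured, with Thy1 under the floor. Of these 9, 8 were above 0, among them Vim, Col1a1 and Pdgfra, and 1 was below it, Dcn (12543 with T+E2 and 18705 untreated). Of 15 leukocyte and macrophage markers on the array 3 were measured, Lyz2 (369 with T+E2 and 1065 untreated), Coro1a (202 with T+E2 and 323 untreated) and Cd14 (78.7 with T+E2 and 70.1 untreated), while the defining genes Ptprc, Adgre1, Csf1r and Itgam were at background. The summed intensity of all 15 was 708 with T+E2 and 1516 untreated, and Lyz2 was the largest part of it on both arrays. The leukocyte and macrophage sum moved with the lower Ifi47, Bst2, Irf1 and chemokine values, and its part in them was not tested. Of 12 epithelial markers 3 were measured, Cdh1 (190 with T+E2 and 41.4 untreated), Trp63 (352 with T+E2 and 255 untreated) and Esrp2 (5889 with T+E2 and 3782 untreated). Epcam and the keratin genes were at background. The summed intensity of all 12 was 6472 with T+E2 and 4119 untreated, most of it from Esrp2. Of 9 endothelial markers Tek alone was measured. The mesenchyme sum (186331 with T+E2 and 164860 untreated) and the endothelial sum (1075 with T+E2 and 939 untreated) were also higher with T+E2. These 3 sums moved with the higher members, and their part in them was not tested. The 18 hybridization spikes differed by -0.25 to 0.09 between the arrays, with an SD of 0.12.

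**Figure D5:**
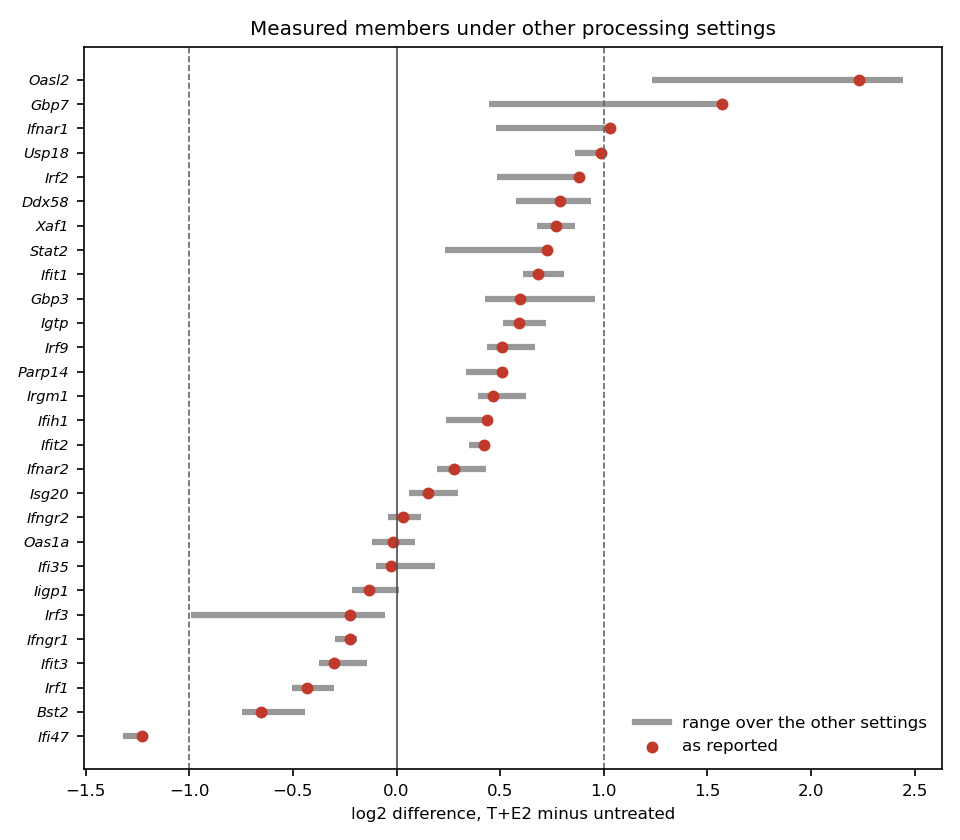
Log2 difference (T+E2 minus untreated) of the 28 measured members as reported (red points) and the range over 8 other processing settings (grey bars, over those that gave the gene a value), with dashed lines at 2-fold. Oasl2 and Ifi47, which have 1 probe set each and so no value from a second one, stay past 2-fold over the range that could be computed, whereas the bars of Gbp7 and Ifnar1 reach down to 0.45 and 0.48.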

How the data were processed

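Expression was measured on 1 Affymetrix array per condition, and this number limits precision. The deposited values are intensity values on a linear scale, made by the authors with GCRMA, which corrects background, normalizes between arrays and summarises probes, per the submitters' processing notes. No GCRMA version is given in the sources used here. Here log2 was taken, a floor of 5 (log2) was applied to both arrays, and T+E2 minus untreated was formed. Where 1 array missed the floor the difference is a lower bound. Of 45101 probe sets, 34945 named 1 gene, 932 named several, 9160 named none and 64 were controls. Symbols came from the platform annotation, updated by gene identifier through the RefSeq table of GRCm38.p6 (18145 of 18193 genes matched). Each gene was read from its brightest probe set by mean log2. From the 7 other lists the text names up to 4 genes past 2-fold, or the 2 farthest from 0, and genes outside this rule were named after their values were seen. Members and lists were chosen with earlier results of these data known. Python 3.11.15, pandas 2.3.3 and statsmodels 0.14.6 were used.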

Additional observations from a re-analysis of the deposited data

How the results depend on the processing

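With 1 array per condition no setting carries a test, and values were compared with the SD of the hybridization spikes (0.12). That SD comes from control probe sets and does not measure the spread between cultures. No paired analysis was possible because each group holds 1 array. Of the 4 members past 2-fold, all stayed past it with a floor of 4, a floor of 6, no floor and the genomic span trend removed. Ifnar1 came under 2-fold with centring (0.96) and with the level trend removed (0.97). With the mean of all probe sets, which takes in probe sets at background, Ifnar1 (0.48) and Gbp7 (0.45) came under it. That setting left 1 of 28 members higher and a transcription factor median of 0.24. It also left 4 of 68 measured genes of the other lists and 315 of all 9392 measured genes higher. With the second highest probe set only 6 measured members had a value. Of these, 0 were higher, 0 lower and 5 above 0, with a median of 0.31. None of the 4 members past 2-fold is among these 6, so this setting could neither keep nor lose their calls. The receptor median was then 0.43, the immunity-related GTPase median 0.011, the median of the other effectors 0.43 and that of the other lists 0.36. The transcription factor median, which then rests on Irf3 alone, was -0.38, on the other side of 0. Of the 4535 genes measured with a second probe set, 343 were higher and 269 lower, against 509 and 412 of 10267 as reported. Without a floor, where genes at background enter, the member median was 0.28 and that of the other effectors 0.33. In the other lists 4 of 114 genes were then higher, against 638 of all 18193 genes. The chemokine list median was 0.0015, on the other side of 0 from -0.69. With a floor of 6, 1 of 72 genes of the other lists was higher, against 442 of all 9891 measured genes. With the level trend removed it was 1 of 77, against 389 of 10267. With the genomic span trend removed 301 of 10250 genes were higher and 437 lower. Of 77 genes of the other lists 4 were then higher and 1 lower, and the median of the other effectors was 0.30. Signs of members changed for Ifngr2 with centring and with the level trend removed, for Oas1a and Ifi35 with the span trend removed, and for Iigp1 and Ifi35 with the second highest probe set.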

Other observations

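Probe sets of the same gene gave a second reading for a few members. Both Xaf1 probe sets (0.77 and 0.68), both measured Ddx58 probe sets (0.79 and 0.94), all 3 Ifnar2 probe sets (0.28, 0.43 and 0.10) and both measured Irf3 probe sets (-0.22 and -0.38) lay on the same side of 0 within their gene. The Ifi35 probe sets did not. They stood at 9386 with T+E2 and 9552 untreated, at 586 with T+E2 and 515 untreated, and at 256 with T+E2 and 316 untreated, so that their differences were -0.03, 0.19 and -0.30. One Irf3 probe set under the floor stood at 4.63 with T+E2 and 28.6 untreated, a gap that the floor sets to 0.

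Some neighbouring genes of the pathway lay on opposite sides of 0. Parp14, Dtx3l and Parp9 lie together on chromosome 16 and differed by 0.51, 0.67 and -0.64. Others lay on the same side, as the adjoining genes Ifi27 and Ifi27l2a did, at -0.28 and -0.79.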
